A study of Mus musculus with 2 samples.

Results

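The 10 genes described here are *Atf4* and 9 genes known as its targets, chosen by name, among the 23628 genes measured in *Sox9*GFPHi chondrospheres. They fall into 3 stress regulators (*Atf4*, *Ddit3* and *Trib3*) and 7 genes of amino acid synthesis and uptake (*Asns*, *Phgdh*, *Psat1*, *Shmt2*, *Aldh18a1*, *Pycr1* and *Slc7a11*). All 10 were measured in both libraries of the study, which are 2 replicates of 1 condition (MC-SOX9-GFPhi), so the data allow a description of levels and of the distance between the libraries, and no test between groups. Femoral heads were taken from pups at postnatal day 7, and the spheres were grown from their cells. Both libraries carry the homozygous *Sox9* IRES-EGFP reporter, in which the *Sox9* locus drives GFP, and both come from the GFP-high fraction, sorted without endothelial, erythroid and leukocyte surface markers. The cells were cultured in methylcellulose at low oxygen, in a serum-containing medium with FGF2, BMP4, IGF1, LIF and TGF-β1. The methods treat each pup as its own biological replicate at harvest. Neither they nor the labels say whether the 2 libraries came from separate pups. The spread between the libraries may be biological or technical, and its source was not tested.

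ATF4 is a transcription factor whose mRNA is translated best when the initiation factor eIF2α is phosphorylated, which happens during amino acid shortage, endoplasmic reticulum stress and other stresses. It binds as a dimer with other leucine zipper proteins, among them the C/EBP factors, and switches on genes for amino acid synthesis, uptake and tRNA charging. In cells of the skeleton it is known for its role in supplying amino acids for collagen, a protein rich in glycine and proline. Because ATF4 is controlled largely at translation, the level of its mRNA is not a measure of its protein.

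Expression is given as counts-per-million values (CPM), the reads assigned to a gene scaled to a common total over all genes, and wherever a pair of values follows, replicate 1 comes before replicate 2. The smallest step between low values gives about 43300000 and 42200000 reads on genes, so the members rest on 510 to 18668 reads in a library. The floor of 3 reads corresponds to 0.0693 and 0.0712 CPM. This floor and the intervals given below take in only the error of counting. The chondrocyte label was met by its defining genes, since all 8 of a marker list (among them *Sox9*, *Col2a1* and *Acan*) were above that level in both libraries. They summed to 183747 and 127695 CPM. Markers of cells that the sort should leave out were low, with 4 endothelial genes summing to at most 0.231 CPM (*Cdh5*, *Kdr* and *Emcn* were at 0) and 4 leukocyte genes to 8.36 and 3.35 CPM, while 5 osteoblast genes summed to 4.86 and 52.7 CPM, mostly through *Dmp1* in replicate 2.

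The sequence recognised by ATF4 and its C/EBP partners is shown first, because it is the feature by which ATF4 is known to reach its targets. RefSeq promoters on GRCm38.p6, running from 250 bases before to 50 bases after a transcription start, were found for all 10 members, with 2 starts for *Psat1* and so 11 windows. The core of the C/EBP-ATF response element, searched as TGATGNAA on both strands, was present in 4 of these 11 windows (36.4%) and in 1304 of all 32851 windows (3.97%). The members were known beforehand as ATF4 targets, so this share is a description of the list and not evidence for it. The stretches that hold the matches are shown 5′ to 3′ on the strand of the gene, with the match in capitals. In *Slc7a11* the second match, and in *Trib3* the only one, is the element read on the opposite strand.

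*Asns* (chr6:7693214-7693243, minus strand): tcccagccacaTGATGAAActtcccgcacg

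*Pycr1* (chr11:120643814-120643881, minus strand): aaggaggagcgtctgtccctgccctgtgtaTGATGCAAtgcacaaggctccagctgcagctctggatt

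*Slc7a11* (chr3:50443623-50443709, minus strand): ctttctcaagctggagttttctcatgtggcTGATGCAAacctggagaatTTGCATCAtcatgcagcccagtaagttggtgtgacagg

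*Trib3* (chr2:152344028-152344057, minus strand): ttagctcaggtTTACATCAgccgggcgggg

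Counted from the RefSeq start, the matches lay at -23 to -16 in *Asns*, at -103 to -96 in *Pycr1*, at -66 to -59 and -47 to -40 in *Slc7a11*, and at 15 to 22 in *Trib3*. Annotated starts differ between catalogues. GENCODE M21 places the start of *Asns* 45 bases further upstream, so that the match falls inside the transcript, and the start of *Trib3* 28 bases further downstream, so that the match falls before it. No match was found in the windows of *Atf4*, *Ddit3*, *Phgdh*, *Psat1*, *Shmt2* and *Aldh18a1*, which says only that these letters are not in these windows. Both *Psat1* windows (chr19:15924573-15924872 and chr19:15925010-15925309) lie inside the GENCODE M21 gene. That gene begins at 15947337 on the minus strand, and the sequence around that start was not searched. With the same search, 5 of 15 windows of other ATF4-linked stress genes held the element (*Atf3*, *Chac1*, *Fgf21*, *Nupr1* and *Vldlr*). So did 5 of 13 windows of cytosolic tRNA synthetases (*Aars*, *Gars*, *Iars*, *Tars* and *Yars*) and 0 of 14 windows of collagen genes. The lists hold 20 synthetase and 17 collagen genes, so some of these genes had no window and were not searched. Of the other motifs searched on both strands, the E-box CACGTG was found in *Aldh18a1* (7.15% of all windows hold it). The antioxidant response element core TGACNNNGC was found in *Asns* and *Phgdh* (12.4% of all windows). Neither the cAMP response element TGACGTCA (1.79% of all windows) nor the endoplasmic reticulum stress element (0.119%) was found in a member. None of the matches of different motifs overlapped.

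**Figure D1:**
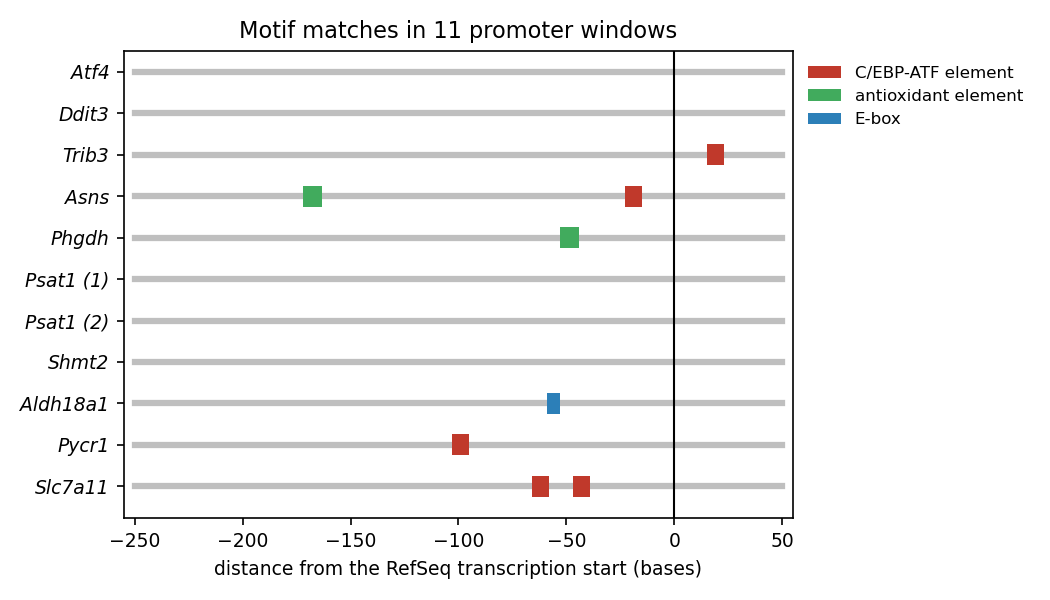
Motif matches in the 11 promoter windows of the 10 members. The x axis is the distance from the RefSeq transcription start in bases, grey lines are the windows searched, and coloured blocks are matches. The C/EBP-ATF element appears in 4 windows, those of *Trib3*, *Asns*, *Pycr1* and *Slc7a11*.

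Of the stress regulators, *Atf4* itself (ENSMUSG00000042406.8, chr15:80255184-80257541 in GENCODE M21 on GRCm38, plus strand) had 431 and 406 CPM, a mean of 418 ± 18.2 CPM (SD, n = 2). Its rank among all genes was 158 and 220, and no other member ranked higher. *Trib3* (chr2:152337422-152344032, minus strand), a pseudokinase induced by ATF4 and CHOP, had 126 and 106 CPM, a mean of 116 ± 13.8 CPM (SD, n = 2). *Ddit3* (chr10:127290774-127296288, plus strand), which encodes CHOP, a stress factor associated with cell death, had 58.0 and 48.9 CPM (53.4 ± 6.43, SD, n = 2). All 3 were a little lower in replicate 2, and together they summed to 615 and 561 CPM.

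The genes of asparagine, serine and glycine synthesis were also expressed in both libraries. *Asns* (chr6:7675169-7693254, minus strand), asparagine synthetase, had 148 and 172 CPM. *Phgdh* (chr3:98313170-98339990, minus strand), whose enzyme takes the first step from glycolysis to serine, had 76.4 and 116 CPM (96.0 ± 27.8, SD, n = 2). *Psat1* (chr19:15904678-15947337, minus strand), the aminotransferase of the next step, had 29.3 and 98.5 CPM (63.9 ± 48.9, SD, n = 2). Its rank was 3795 and 1270, the widest gap of any member. *Shmt2* (chr10:127517123-127522444, minus strand), the mitochondrial enzyme that turns serine into glycine and a one-carbon unit, had 165 and 156 CPM, a mean of 160 ± 6.40 CPM (SD, n = 2).

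Proline is made from glutamate by the enzymes of *Aldh18a1* (P5C synthase, chr19:40550257-40588463, minus strand) and then of *Pycr1* (P5C reductase, chr11:120635712-120643769, minus strand). *Aldh18a1* had 175 and 203 CPM, a mean of 189 ± 19.6 CPM (SD, n = 2). *Pycr1* had 70.2 and 78.6 CPM, a mean of 74.4 ± 5.99 CPM (SD, n = 2). Both were slightly higher in replicate 2. *Slc7a11* (chr3:49892526-50443614, minus strand), the cystine importer xCT, was the lowest of the members in CPM, with 11.8 and 18.2 CPM (15.0 ± 4.57, SD, n = 2). The 7 genes of synthesis and uptake summed to 675 and 841 CPM.

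**Figure D2:**
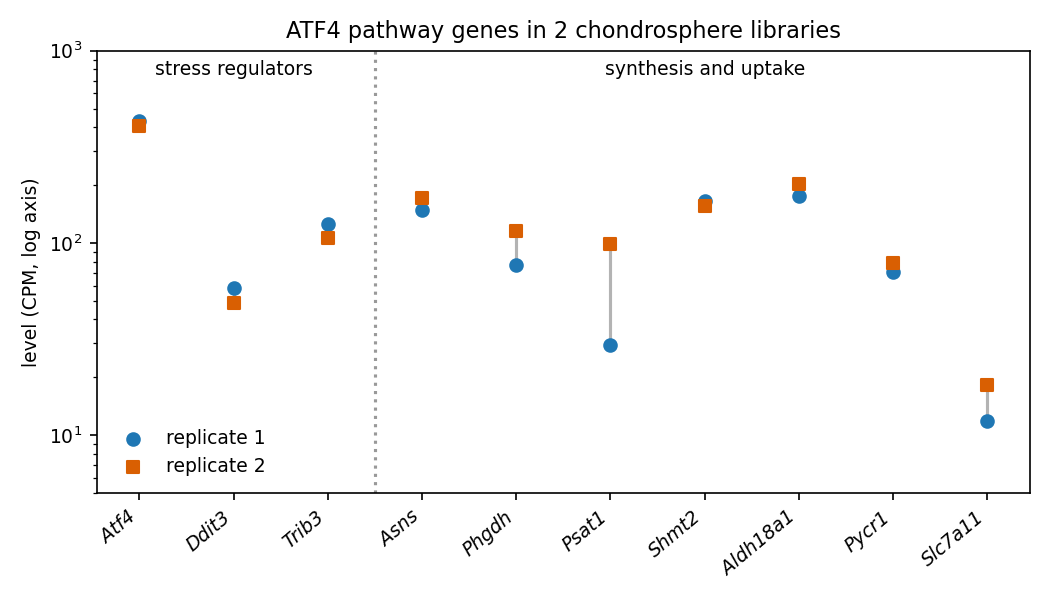
Level of each member in CPM (log axis) in replicate 1 (circles) and replicate 2 (squares), with a grey line joining the 2 libraries. *Psat1*, with 29.3 and 98.5 CPM, has the widest gap, and *Atf4* is the highest of the members in both libraries.

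Most of these levels can be assigned to 1 gene with reads of 50 bases, and *Phgdh* is the exception. Of all 50-base stretches of its coding transcript, 63.1% are also found in transcripts of 20 other annotated genes, led by *Gm7901*. The 3 of these that were measured summed to 6.37 and 8.40 CPM, so the level of *Phgdh* depends on how the deposited counting divided shared reads and is uncertain. The shared part was 1.21% for *Psat1*, 1.83% for *Shmt2*, 0.752% for *Slc7a11* and 0 for the other 6 members. *Ddit3* overlaps *Mars1* (named *Mars* in GENCODE M21), and *Shmt2* overlaps *Ndufa4l2* (73.9 and 12.7 CPM), each on the opposite strand. *Aldh18a1* overlaps the processed pseudogene *Gm15801* (6.14 and 5.10 CPM) on the same strand. The libraries are stranded, but the strand setting of the counting is not given in the sources used here.

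Levels of different genes were compared per kilobase of annotated exon. On this scale *Atf4* was highest at 177 ± 7.72 CPM per kilobase (SD, n = 2), above *Asns* at 58.5 ± 6.20. *Trib3* (54.5 ± 6.50), *Shmt2* (51.5 ± 2.06) and *Aldh18a1* (46.4 ± 4.82) came next, and within this run of 4 genes from *Asns* to *Aldh18a1* no neighbours differed beyond the SD of their log2 ratio between libraries. *Phgdh* (38.6 ± 11.2) lay below *Aldh18a1* in both libraries but did not differ from *Ddit3* (31.2 ± 3.76) beyond the spread. *Pycr1* followed at 18.9 ± 1.52, below *Ddit3* in both libraries. *Psat1* had 6.88 CPM per kilobase in replicate 1, where it was below *Pycr1*, and 23.1 in replicate 2, where it was above. *Slc7a11*, whose annotated exons cover 13922 bases, was lowest at 1.08 ± 0.328.

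Ratios taken inside 1 library are free of its scaling, and they place each enzyme against its counterpart, again per kilobase of exon. *Pycrl*, a gene related to *Pycr1*, had 8.02 and 16.3 CPM. *Shmt2* exceeded *Shmt1*, the cytosolic form, by 6.93 and 6.42 on the log2 scale (122-fold and 85.7-fold). *Asns* exceeded *Glul*, glutamine synthetase, by 7.98 and 7.88, with *Glul* at 0.712 and 0.884 CPM. For both of these pairs the ratio was far larger than its SD between libraries (0.36 for *Shmt2* to *Shmt1* and 0.07 for *Asns* to *Glul*).

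*Prodh*, which starts the breakdown of proline, was close to the limit of detection, with 0.162 CPM (7 reads) in replicate 1 and 0.0237 CPM (1 read) in replicate 2. The log2 ratio of *Aldh18a1* to *Prodh* was 11.02 in replicate 1, with an exact 95% counting interval of 9.97 to 12.33, and 14.00 in replicate 2, with an interval of 11.52 to 19.30. *Aldh4a1*, the next enzyme of breakdown, had 6.17 and 6.62 CPM, and *Oat*, which makes the same intermediate from ornithine, had 194 and 189 CPM. Per kilobase of exon *Oat* had 82.1 and 80.0, above *Aldh18a1* (43.0 and 49.8) in both libraries. *Prodh2* was not analysed here. *Ddit3* and *Trib3* lay below *Atf4* by similar amounts in the libraries. Their log2 ratios to *Atf4* were -2.43 and -2.59 for *Ddit3*, and -1.63 and -1.78 for *Trib3*. *Phgdh* exceeded *Psat1* by a log2 ratio of 2.16 in replicate 1 and 1.01 in replicate 2, a mean of 1.58 ± 0.81 (SD, n = 2), which was 0.81 without division by length.

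**Figure D3:**
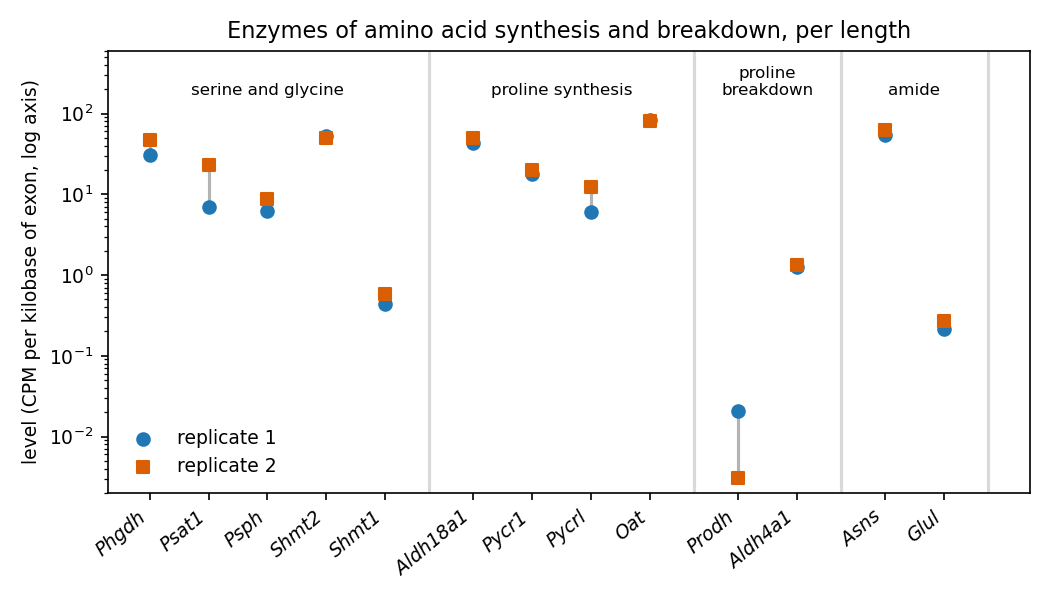
Level per kilobase of exon (log axis) of enzymes of serine, proline, asparagine and glutamine metabolism in replicate 1 (circles) and replicate 2 (squares). *Shmt1*, *Glul* and *Prodh* lie far below the members plotted here, which do not include *Slc7a11*. The *Prodh* value of replicate 2 rests on 1 read.

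Between the 2 libraries, CPM values of most genes were higher in replicate 2, with a median log2 ratio of 0.30 over the 12631 genes averaging 1 CPM or more, and ratios are given below relative to that median. CPM values are shares of a fixed total, of which the 10 highest genes took 43.4% in replicate 1 and 34.7% in replicate 2. A higher CPM in replicate 2 is therefore not by itself more mRNA of a gene. Log2 ratios used a pseudocount of 0.1 CPM, which slightly understates the ratio of low genes. Of the 10 members, 1 lay over 2-fold higher in replicate 2 and 0 over 2-fold lower, against 7.43% and 6.06% of all genes, so the count of 1 in 10 is near the background. The median of the members was -0.12 (0 for all genes by construction), and 9 of them lay between -0.55 and 0.32. Among the stress regulators the centred log2 ratio was -0.39 for *Atf4* and -0.55 for both *Ddit3* and *Trib3*, so all 3 were below the median of all genes. Among the synthesis and uptake genes it was -0.39 for *Shmt2*, -0.14 for *Pycr1*, -0.09 for *Asns* and for *Aldh18a1*, 0.29 for *Phgdh* and 0.32 for *Slc7a11*. Counting error of these ratios was 0.015 to 0.08 on the log2 scale, and the SD of the log2 ratio over all genes was 0.83.

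*Psat1* was the member past 2-fold, at a centred log2 ratio of 1.44, and 95.6% of the genes had a lower one. Its level was 3.36-fold higher in replicate 2 in CPM, while *Phgdh* was 1.51-fold higher and *Psph*, the last enzyme of serine synthesis, went from 27.0 to 38.3 CPM. Proliferation genes were also higher in replicate 2, with 12 of 12 above the median of all genes, 10 of them over 2-fold (*Mki67* had 8.13 and 50.8 CPM), and a list sum of 113 and 410 CPM. The 8 chondrocyte markers were all below the median, with 3 over 2-fold lower (*Col9a1*, *Matn3* and *Snorc*). Of 4 osteoblast genes averaging 1 CPM or more, 3 were over 2-fold higher (*Sp7*, *Dmp1* and *Alpl*). Over all genes 7.43% were over 2-fold higher and 6.06% over 2-fold lower. The part of cell division or of cell composition in the *Psat1* difference was not tested, and in bulk RNA fewer cells of a type and less RNA per cell cannot be told apart.

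The neighbouring stress lists differed in where they lay relative to the median of all genes in replicate 2. Of 12 other ATF4-linked stress genes, 0 were over 2-fold higher and 3 over 2-fold lower, 11 had a centred log2 ratio below 0, and their median was -0.46. Over all genes 7.43% were higher and 6.06% lower, and in lists of this size a count of 0 is near that share. The 3 were *Stc2*, a secreted glycoprotein, with 200 and 107 CPM, *Fgf21*, a secreted stress hormone, with 17.9 and 6.64 CPM, and *Atf3*, a stress-induced transcription factor and the lowest of the list, with 9.80 and 5.84 CPM. The highest was *Atf5*, a factor related to ATF4, with 384 and 305 CPM. Among the genes of the eIF2α kinases, the phosphatase subunits and eIF2α itself, 0 of 7 passed 2-fold in either direction. Their median was 0.04, with 4 above 0 and 3 below. *Ppp1r15a*, the inducible phosphatase subunit GADD34, was their highest by the mean, at 122 and 79.5 CPM. The kinase gene *Eif2ak3* (PERK, the sensor in the endoplasmic reticulum) had 88.2 and 85.3 CPM and was the highest in CPM in replicate 2. Per kilobase of exon *Ppp1r15a* was above it in both libraries, with 41.7 and 27.1 against 14.6 and 14.2. *Eif2ak2* (PKR, the sensor of double-stranded RNA) was the lowest of the list in CPM, at 11.7 and 14.9. Of 11 genes of the other endoplasmic reticulum stress branches 0 passed 2-fold, with a median of 0.18, and 8 were above 0 and 3 below. By the mean CPM they ran from the chaperone gene *Hsp90b1* at 736 and 1164 (*Hspa5*, with 742 CPM, was above it in replicate 1) to *Sdf2l1* at 5.68 and 9.37.

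For the wider amino acid pathways, too, counts past 2-fold are to be read against the 7.43% and 6.06% of all genes, and at these list sizes a count of 0 or 1 is near that share. The highest and lowest genes of all context lists are ranked by CPM, and per kilobase of exon the order can differ. Of the 15 genes for serine, glycine and one-carbon metabolism, 13 had a mean of at least 1 CPM, and 1 was higher (*Psat1*) and 1 lower (*Amt*, of the glycine cleavage system, with 5.43 and 2.11 CPM). The highest of this list by the mean was *Aldh1l2*, a mitochondrial folate enzyme, at 160 and 243 CPM (*Shmt2* was above it in replicate 1). Per kilobase of exon *Shmt2* was above *Aldh1l2*, with means of 51.5 and 26.9. The lowest was *Gldc*, the glycine-cleaving decarboxylase, at 0.370 and 0.498 CPM. Of 6 proline genes and 8 genes for glutamine, glutamate, aspartate and alanine with a mean of at least 1 CPM, 0 passed 2-fold. The same held for 4 genes of cysteine and glutathione synthesis, the highest by the mean being *Cth* (cystathionine gamma-lyase) at 39.5 ± 13.4 CPM (SD, n = 2). Of 12 amino acid transporters, 0 were higher and 1 was lower (*Slc43a1*, a transporter of large neutral amino acids and the lowest of the list, at 3.10 and 1.68 CPM). *Slc7a11* stood at the low end of that list, whose highest gene in CPM was *Slc38a2*, a carrier of small neutral amino acids that include proline, at 284 and 256. *Slc3a2*, the heavy chain with which xCT forms the cystine exchanger, had 193 and 186 CPM. Per kilobase of exon *Slc3a2* was above *Slc38a2*, with means of 53.8 and 30.5. All 20 cytosolic tRNA synthetase genes lay within 2-fold, with centred log2 ratios from -0.21 to 0.41 and levels from 22.7 and 32.2 CPM (*Farsa*) to 273 and 314 CPM (*Aars*).

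**Figure D4:**
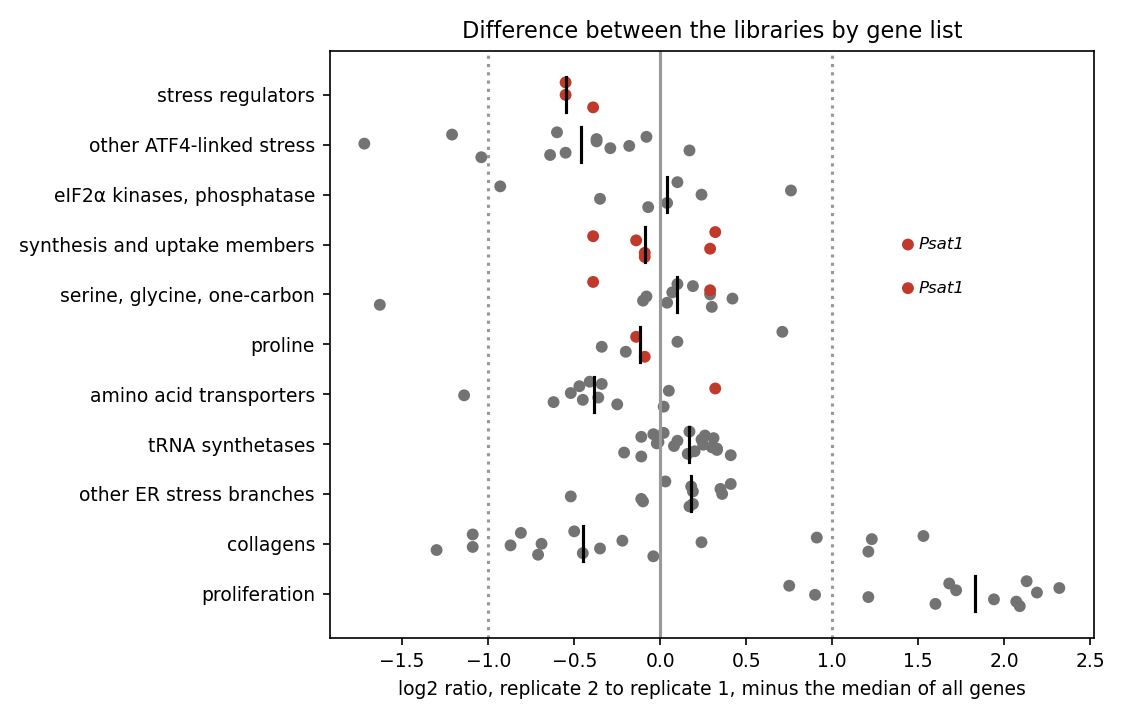
Centred log2 ratio of replicate 2 to replicate 1 for the genes of 11 lists that average 1 CPM or more. Points are genes (members in red), black bars are list medians, and dotted lines mark 2-fold. *Psat1* at 1.44 is the member past 2-fold, and the proliferation genes, with a median of 1.83, lie to the right.

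To set the synthesis genes beside the demand for their products, codons were counted in the longest annotated coding sequence of 15491 genes and weighted by level per kilobase, a count chosen after the levels had been seen. It describes what the mRNA encodes, not the flow of amino acids. Collagen coding sequences are rich in 2 residues that these pathways make. In *Col2a1*, 27.2% of codons encode glycine and 17.3% proline, against 8.20% and 7.75% in *Fn1*, which encodes fibronectin. In the 6 enzymes among the members, proline codons made up 4.03% (*Aldh18a1*) to 5.25% (*Phgdh*) and glycine codons 5.88% (*Asns*) to 9.76% (*Phgdh*). Over all genes glycine took 11.4% of weighted codons in replicate 1 and 10.2% in replicate 2, against 6.51% when each gene counted once. Without the 17 collagens of the list the weighted share was 7.54% and 7.36%. Proline took 8.91% in replicate 1 and 8.19% in replicate 2, against 6.27% when each gene counted once and 6.82% and 6.64% without the collagens.

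The 17 collagens made up 20.2% of all weighted codons in replicate 1 and 15.2% in replicate 2. They held 47.3% and 38.9% of the weighted glycine codons and 38.9% and 31.3% of the weighted proline codons, most of them in *Col2a1* alone (38.2% and 29.6% of glycine, 31.1% and 23.5% of proline). Their share of serine codons was 11.4% in replicate 1 and 8.31% in replicate 2, and of asparagine codons 11.9% and 9.01%, so these lay below their share of all codons. *Fn1* held 32.6% and 29.3% of the asparagine codons, above its 26.1% and 23.6% of all codons. With weights of CPM without length, these *Fn1* shares were 50.1% and 45.7% of asparagine codons and 40.6% and 37.9% of all codons. The 17 collagens then made up 24.1% and 18.7% of all codons. The length used counts all annotated exons, which for *Col2a1* cover 9243 bases against 5104 in its longest coding transcript. Shares with coding transcript lengths were not computed. The collagen CPM summed to 182693 in replicate 1 and 131759 in replicate 2. *Col2a1* alone had 148953 and 100682 CPM, so these sums mostly follow 1 gene. The 17 collagens went both ways, with centred log2 ratios below 0 for 12 and above 0 for 5. After centring, 3 were over 2-fold higher in replicate 2 (*Col6a1*, *Col6a3* and *Col12a1*) and 3 over 2-fold lower (*Col1a1*, *Col9a1* and *Col27a1*). Of the proline synthesis genes, *Aldh18a1* was 1.16-fold, *Pycr1* 1.12-fold and *Pycrl* 2.04-fold higher in CPM in replicate 2. The median of genes averaging 1 CPM or more was itself 1.23-fold higher. Relative to that median, the log2 ratios of these proline genes were -0.09, -0.14 and 0.71.

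**Figure D5:**
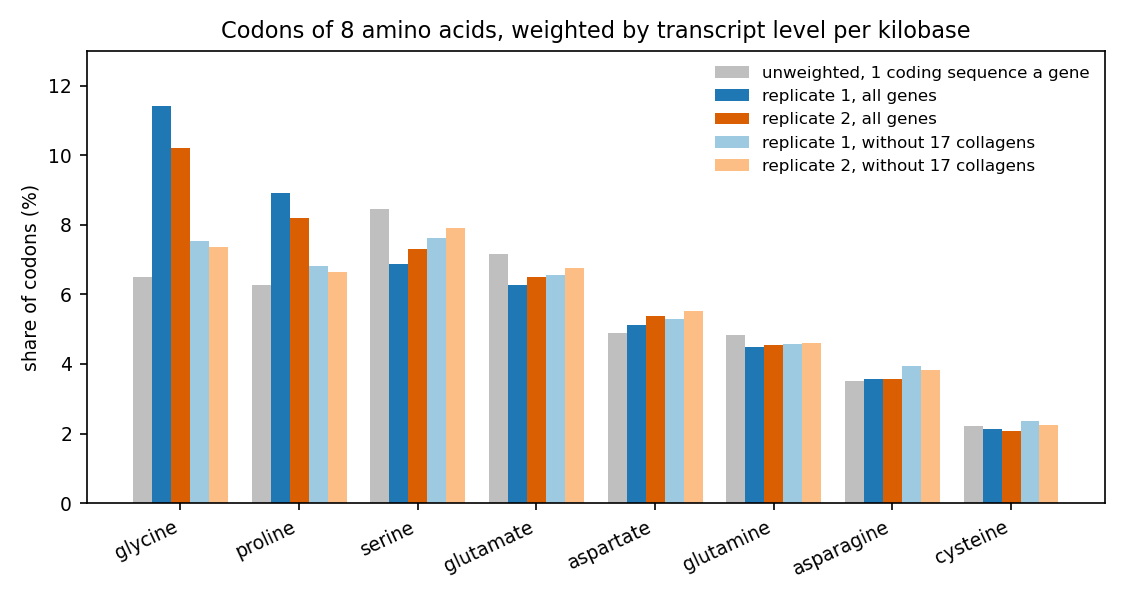
Share of codons for 8 amino acids, in percent. Grey bars count 1 coding sequence for each gene, dark bars weight each gene by its level per kilobase in replicate 1 or 2, and pale bars leave out the 17 collagens. Glycine and proline stand above the grey bars with the collagens and come closer to them without.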

How the data were processed

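Total RNA was poly(A)-selected, made into stranded libraries and sequenced as single-end reads of 50 bases. Per the methods and the submitters' processing notes, the authors aligned reads with STAR 2.7.3a to GRCm38 (mm10) with the GENCODE M25 annotation, quantified genes with Partek E/M in Partek Flow 10.0.21.0801 and normalized to CPM. The deposited CPM values carry an offset of 0.0001, which was subtracted. The depth behind them was read from the step between low values. Because 65.4% and 64.2% of low values (up to 100 reads) were whole reads within 0.05 of a read, the values were kept as CPM and no count test was run. Means, SDs, ranks, log2 ratios within a library, and log2 ratios between libraries (pseudocount 0.1 CPM, centred on the median of genes averaging 1 CPM or more) were computed. No p-values were computed, because there is 1 condition.

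The members and gene lists were chosen with earlier results of these data known. Text genes are the 10 members, the partners in the stated ratios and, of each context list, the highest and the lowest by mean CPM and those past 2-fold, where needed. *Psph*, *Pycrl*, *Aldh4a1*, *Oat*, *Eif2ak3*, *Slc3a2*, *Col2a1*, *Fn1*, the example markers, *Ndufa4l2* and *Gm15801* were named after their values were seen, as pathway neighbours or context. No genes of like pattern were sought, since 2 libraries define none. Coordinates and exon lengths come from GENCODE M21 on GRCm38, where 22965 gene names matched 1 gene. *Ddit3* has 2 entries there, and the one with the longer exons was used. 1 gene of the proline list is not reported here. Protein sequences were not used here, so the planned protein comparisons were replaced by codon counts. The ratio and motif steps were tested on simulated data. Alternatives covered pseudocount, filter, scaling, length, promoter window and each library. The tools were numpy 2.4.6 and pandas 2.3.3 for tables, scipy 1.17.1 for intervals and matplotlib 3.10.9 for plots, under Python 3.11.15.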

Additional observations from a re-analysis of the deposited data

How the results depend on the processing

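For 26 results, 97 values were recomputed with 1 choice changed, of which 72 moved by less than the spread (or by less than 1.5 times for a percentage of genes), 25 by more and 0 reversed. The 40 values that leave out 1 of 2 libraries moved by less than the SD by arithmetic and show no stability. *Psat1* was the 1 member past 2-fold under all 6 other settings of pseudocount, filter and centring (1.42 to 1.75), and the other 9 members lay between -0.57 and 0.63. Without centring, the median of the members was 0.19 in place of -0.12, because the median of all genes is then 0.30 and not 0. The share of all genes past 2-fold was then 11.4% higher and 3.71% lower. It was 3.75% and 3.35% among genes averaging 10 CPM or more, and 9.71% lower among all genes above 0. With a total that omits the 10 highest genes, the synthesis and uptake members summed to 1240 CPM and the stress regulators to 972 CPM on average, as a smaller total requires. Without division by length, the log2 ratio was -2.97 for *Ddit3* to *Atf4*, -1.86 for *Trib3* to *Atf4* and 7.65 for *Asns* to *Glul*, and, within the SD between libraries, 0.81 in place of 1.58 for *Phgdh* to *Psat1* and 11.57 in place of 12.51 for *Aldh18a1* to *Prodh*. With the longest coding transcript these 5 were -2.02, -2.09, 8.12, 1.27 and 11.01, so *Ddit3* and *Trib3* change order. Weighting codons by CPM gave 11.6% glycine and 9.22% proline. Without the 50 bases after the start, the C/EBP-ATF element was in 27.3% of member windows and 3.45% of all windows. The depth limits *Prodh*, which rests on 7 reads and 1 read.

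The range without 1 library was 675 to 841 CPM for the synthesis and uptake members and 561 to 615 CPM for the stress regulators.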
